A study of Mus musculus with 2 samples.

Results

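The genes described here are 5 parts of the interleukin-6 and interleukin-27 receptor axis: the receptor chains Il6ra, Il6st and Il27ra, the kinase Jak2 and the transcription factor Stat3. They were taken by symbol from the 31253 genes of the deposited matrices, and all 5 were measured. The cells were splenic regulatory T (Treg) cells sorted as CD4+Foxp3+ and profiled by droplet-based single-cell RNA sequencing with a 3′ kit from 10x Genomics. One library came from Foxp3YFP-Cre Kmt2dfl/fl mice (fl/fl), in which both copies of Kmt2d are flanked by loxP sites, and the other from Foxp3YFP-Cre Kmt2d+/+ mice (+/+), with unmodified Kmt2d. Both genotypes carry Foxp3YFP-Cre, a Cre recombinase joined to a fluorescent protein and made where Foxp3 is expressed, so the controls carry the Cre as well. Each library pooled the cells of 3 mice, with 1 library per genotype, so no difference between genotypes could be tested and mice cannot be told apart from genotype. Kmt2d encodes an enzyme that methylates lysine 4 of histone H3, a mark of enhancers.

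Interleukin-6 first binds the chain encoded by Il6ra, and the pair then engages gp130, the signalling chain encoded by Il6st. Interleukin-27 uses the same gp130 with the chain encoded by Il27ra. Both receptors act through JAK kinases, JAK2 among them, on STAT proteins, STAT3 among them. In CD4 T cells interleukin-6 is known for favouring the T helper 17 fate over the Treg fate, and interleukin-27 for inducing T-bet and interleukin-10.

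The fl/fl file held 8784 barcodes with a median of 6039.5 unique molecular identifiers (UMIs, one per captured transcript molecule), and the +/+ file 7947 with a median of 5562. There were 15 barcodes present in both files. After filters 8634 fl/fl and 7790 +/+ cells remained and were assigned to gates by marker UMIs, none of them a gene of this axis. The Treg gate took T-lineage cells without CD8 UMIs that had a Foxp3 UMI or at least 2 UMIs of Ikzf2, the Treg-associated factor Helios. It held 3756 fl/fl cells (43.5%) and 3960 +/+ cells (50.8%), with medians of 6674 UMIs in fl/fl and 5505 UMIs in +/+. Its summed T-lineage markers were at 5174 CPM (UMI counts divided by all UMIs of the gate and library and put on a common scale) in fl/fl and 6015 CPM in +/+, and its B cell markers at 17.4 CPM in fl/fl and 22.1 CPM in +/+. The remaining cells included conventional CD4 T cells (509 fl/fl and 439 +/+), CD8 T cells (361 fl/fl and 254 +/+), B cells (1242 fl/fl and 495 +/+), NK cells (115 fl/fl and 97 +/+) and monocytes and macrophages (108 fl/fl and 144 +/+), although the sort was for Treg cells. Kmt2d was at 70.6 CPM in fl/fl and 73.7 CPM in +/+ Treg-gated cells, a log2 ratio of -0.06 (-0.15 to 0.03). The labels do not say which exons are floxed, and 3′ tags outside them would not show a deletion, so this value checks neither label. In other gates the Kmt2d log2 ratio was -0.51 (-0.76 to -0.25) in B cells and -0.34 (-0.67 to -0.01) in CD8 T cells. It was -1.03 (-1.79 to -0.32) in dendritic cells and -0.11 (-0.40 to 0.18) in conventional CD4 T cells. Foxp3 was at 27.6 CPM in fl/fl and 40.5 CPM in +/+ Treg-gated cells (-0.55, -0.69 to -0.41). A Foxp3 UMI was found in 745 fl/fl and 902 +/+ T-lineage cells, so most Treg-gated cells entered by their Ikzf2 UMIs. Log2 ratios are of CPM, fl/fl over +/+, and brackets hold 95% intervals of counting error only, which say nothing of the spread between mice.

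On GRCm38, the build of the deposited files, Il6ra lies on the minus strand at chr3:89864059-89913196 and Il6st on the plus strand at chr13:112464070-112510086. Il27ra lies on the minus strand at chr8:84030294-84042589, Jak2 on the plus strand at chr19:29251828-29313080 and Stat3 on the minus strand at chr11:100885098-100939540. Gm42809 overlaps Il6ra on the other strand, with 16 fl/fl and 44 +/+ counts in the Treg gate, Palm3 overlaps Il27ra (54 fl/fl and 46 +/+ counts) and Stat5a overlaps Stat3 (1647 fl/fl and 1962 +/+ counts). Whether counting used strand is not given in the sources used here, so reads of such pairs cannot be told apart. The 250 bases upstream of the gene starts are shown for the 2 chains of the interleukin-6 receptor, whose values went apart in Treg-gated cells. The sequences are RefSeq's on GRCm38.p6, written 5′ to 3′ on the gene's strand, with CpG dinucleotides in capitals, for chr3:89913197-89913446 (minus) and chr13:112463820-112464069 (plus).
Il6ra: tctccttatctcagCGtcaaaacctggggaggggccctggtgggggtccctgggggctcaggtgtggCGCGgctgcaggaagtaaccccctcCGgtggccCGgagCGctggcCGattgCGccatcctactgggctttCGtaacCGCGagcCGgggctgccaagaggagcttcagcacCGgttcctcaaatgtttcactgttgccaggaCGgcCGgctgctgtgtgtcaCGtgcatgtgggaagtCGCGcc
Il6st: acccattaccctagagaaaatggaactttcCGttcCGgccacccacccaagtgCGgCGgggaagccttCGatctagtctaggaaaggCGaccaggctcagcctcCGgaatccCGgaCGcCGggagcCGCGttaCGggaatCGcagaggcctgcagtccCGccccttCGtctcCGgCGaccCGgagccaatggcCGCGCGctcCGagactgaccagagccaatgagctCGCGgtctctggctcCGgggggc
These stretches hold 18 CpG dinucleotides for Il6ra and 26 for Il6st, against a median of 6 over 32851 mouse promoters of the same length. The STAT-type motif TTCNNNGAA, which reads the same on both strands, had 0 matches in the upstream 250 bases of Il6ra, Il6st, Stat3 and Jak2, and 7.02% of all promoters held it. These are descriptions of these windows only.

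Il6ra stood apart from the other members: it was the one gene of the 5 past 1.5-fold in the Treg gate. There were 920 Il6ra UMIs in fl/fl and 2382 in +/+ Treg-gated cells, or 33.9 CPM in fl/fl against 98.5 CPM in +/+, a level 2.91 times lower in fl/fl (log2 ratio -1.54, -1.65 to -1.43). Of 7999 genes measured in this gate (at 10 CPM or more in either library), 1.38% had a lower ratio. Across the gate, 9.75% of measured genes were at least 1.5-fold lower in fl/fl with an interval excluding 1, and 2.21% were higher, so 1 of 5 members lower and 0 higher is a small count and rests on 1 gene. The median of all measured genes was -0.14 in this gate, against which each Treg ratio here should be read. It was -0.01 in conventional CD4 T cells, -0.05 in CD8 T cells and -0.06 in B cells. Differences of ratios between gates include the differences of these medians.

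The lower Il6ra level held in every slice of the Treg gate. In central-like cells, with more homing and quiescence markers (Ccr7, Lef1, Tcf7 and Satb1 among them) than activation markers, Il6ra was at 33.8 CPM in fl/fl and 102 CPM in +/+ (-1.59, -1.72 to -1.47). In effector-like cells, with more of Icos, Tigit, Maf, Itgae, S100a4 and Cxcr3, it was at 34.4 CPM in fl/fl and 93.6 CPM in +/+ (-1.45, -1.77 to -1.14). In cells with as many of one as of the other it was at 34.4 CPM in fl/fl and 88.0 CPM in +/+. The fl/fl values were thus alike in all 3 slices, and the difference of log2 ratios, effector-like minus central-like, was 0.15 (-0.18 to 0.48). Background counts were 9.01% of 7850 measured genes lower and 2.13% higher in central-like cells, and 9.44% of 8324 lower and 3.96% higher in effector-like cells; Il6ra was the one member called in each. The slices are ranges of a marker score, and 20% of fl/fl and 34.5% of +/+ Treg-gated cells lay within 1 marker of the dividing line.

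Per cell, 1 or more Il6ra UMIs were found in 16.8% of fl/fl and 38.2% of +/+ Treg-gated cells. After every cell was thinned to 2500 UMIs, the shares were 7.23% (6.42 to 8.11) of 3720 fl/fl cells and 20.4% (19.2 to 21.7) of 3905 +/+ cells. Cells with 3 or more Il6ra UMIs made up 1.89% of fl/fl and 5.23% of +/+ Treg-gated cells, and the highest cell had 6 in fl/fl and 7 in +/+. NK cells served as the gate without the gene: 0 of 115 fl/fl and 0 of 97 +/+ NK cells had an Il6ra UMI, at medians of 3673 UMIs in fl/fl and 3865 UMIs in +/+. This allows a share of up to 2.61% in fl/fl and 3.09% in +/+ NK cells, or 6.03 CPM in fl/fl and 7.29 CPM in +/+. These limit NK cells with a UMI, not NK cells that express the gene.

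Monocytes and macrophages had the highest Il6ra level of the 15 gates compared, 246 CPM in fl/fl and 213 CPM in +/+ (0.21, -0.09 to 0.50), and NK cells the lowest. In fl/fl, central-like conventional CD4 T cells came next at 99.7 CPM, and the 3 Treg slices (33.8 to 34.4 CPM) lay below naive-like CD8 T cells at 56.3 CPM. In +/+ the next gates were T cells in no named gate (121 CPM), central-like conventional CD4 T cells (121 CPM) and the Treg slices (88.0 to 102 CPM), above naive-like CD8 T cells at 70.7 CPM. In both libraries, Treg slices next to each other in this order did not differ beyond counting error. The highest and lowest +/+ slices were not compared with each other: central-like cells at 102 CPM (97.1 to 107.1) and in-between cells at 88.0 CPM (77.3 to 99.75). The order of Treg and CD8 T cells was therefore opposite in the libraries: the log2 ratio of Treg over CD8 T cells was -0.39 in fl/fl and 0.77 in +/+. Against conventional CD4 T cells, the Treg gate was at -1.31 (-1.52 to -1.09) in fl/fl and -0.27 (-0.45 to -0.09) in +/+. Memory-like CD8 T cells had 6 Il6ra UMIs in fl/fl and 1 in +/+, against 103 in fl/fl and 100 in +/+ naive-like CD8 T cells.

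**Figure D1:**
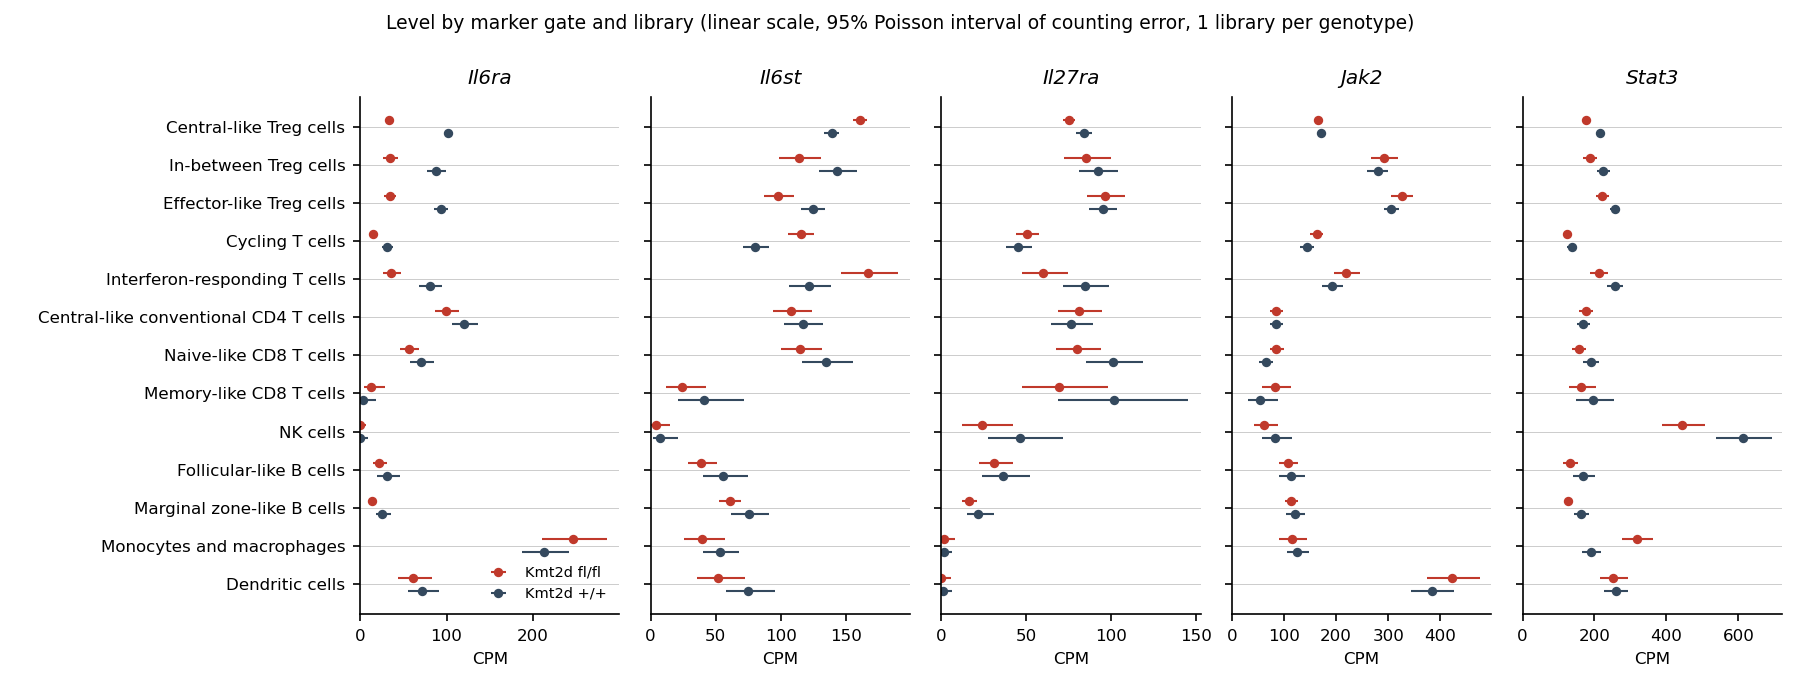
Level of each gene (CPM, linear axes that differ between panels) in 13 of the marker gates, with fl/fl in red above +/+ in dark blue and bars for the 95% Poisson interval of counting error in 1 library per genotype. Il6ra is near 34 CPM in all 3 fl/fl Treg slices and 88.0 to 102 CPM in the +/+ slices, is highest in monocytes and macrophages and is at 0 in NK cells, where Stat3 is highest.

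In conventional CD4 T cells, CD8 T cells, B cells and monocytes the Il6ra ratio was nearer to 0 than in the Treg gate. Conventional CD4 T cells, gated as free of Foxp3 and Ikzf2 UMIs, had 83.9 CPM in fl/fl and 119 CPM in +/+ (-0.50, -0.76 to -0.24), a difference short of 1.5-fold in a gate where 2.85% of 7831 genes were lower and 3.38% higher by that measure. Without the requirement of a Cd4 UMI, added after seeing the data, 1349 fl/fl and 1282 +/+ cells gave -0.67, past 1.5-fold. The gate's central-like cells, 73.1% of the gate in fl/fl and 84.0% in +/+, were at 99.7 CPM in fl/fl and 121 CPM in +/+ (-0.28, -0.55 to 0.00). CD8 T cells were at 44.5 CPM in fl/fl and 57.6 CPM in +/+ (-0.37, -0.77 to 0.02). B cells were at 15.03 CPM in fl/fl and 26.3 CPM in +/+ (-0.81, -1.23 to -0.38), past 1.5-fold where 3.11% of 8044 measured genes were lower. Of those 8044 genes, 1.04% had a lower ratio than Il6ra, beside 1.38% of 7999 in the Treg gate, so its place among all genes was alike. The B cell ratio rests on 111 fl/fl and 84 +/+ UMIs. It was -0.49 (-1.32 to 0.35) in follicular-like, -0.95 (-1.60 to -0.29) in marginal zone-like and -0.77 (-1.57 to 0.06) in the remaining B cells. Cycling markers were at 406 CPM in fl/fl and 101 CPM in +/+ B cells, and plasma cell markers at 178 and 65.5 CPM. Their part in the Il6ra ratio was not tested. The Treg log2 ratio was lower than that of conventional CD4 T cells by a difference of -1.04 (-1.31 to -0.76), than that of CD8 T cells by -1.17 (-1.56 to -0.77), than that of B cells by -0.73 (-1.15 to -0.31) and than that of monocytes and macrophages by -1.75 (-2.05 to -1.44). The T cell gates that hold Treg and other T cells together were also lower in fl/fl. Interferon-responding cells were at 36.2 CPM in fl/fl and 80.9 CPM in +/+ (-1.16, -1.65 to -0.69), cycling cells at 14.9 CPM in fl/fl and 31.4 CPM in +/+ (-1.07, -1.55 to -0.61), and T cells in no named gate at 62.4 CPM in fl/fl and 121 CPM in +/+ (-0.96, -1.11 to -0.81). In the last of these Ikzf2 was at 592.8 CPM in fl/fl and 331.8 CPM in +/+, and the part of that difference in the Il6ra ratio was not tested. The 6 and 1 UMIs of memory-like CD8 T cells gave a ratio in the other direction with a wide interval (1.94, -1.10 to 7.46).

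Markers of other cell types in the Treg gate differed between the libraries too. The 10 monocyte and macrophage markers summed to 92.3 CPM in fl/fl and 56.8 CPM in +/+ Treg-gated cells, of which Ms4a6c alone gave 2346 counts in fl/fl and 1113 in +/+. The other 9 gave 160 counts in fl/fl and 260 in +/+, with Fcgr1 at 0 counts in both and Clec4a3 at 0 in fl/fl and 1 in +/+. Lyz2, the lysozyme gene that monocytes express at a high level, had 59 counts in fl/fl and 112 in +/+ in the Treg gate. The 8 neutrophil markers summed to 12.8 CPM in fl/fl and 29.5 CPM in +/+ Treg-gated cells, lower in fl/fl as Il6ra was, and to 11.9 CPM in fl/fl and 33.9 CPM in +/+ B cells. In the neutrophil gate itself Il6ra was at 38.4 CPM in fl/fl and 47.2 CPM in +/+. The share of conventional CD4 T cells inside the Treg gate was not measured. The part of these markers' cell types in the Treg and B cell Il6ra ratios was not tested.

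The Il6ra ratio between the libraries grew with the number of Ikzf2 UMIs in a cell, a view added after the gate values were seen. T-lineage cells without CD8 UMIs were divided by Ikzf2 UMIs, with cycling and interferon-responding cells left out. With 0 Ikzf2 UMIs, Il6ra was at 78.8 CPM in 1381 fl/fl cells and 127 CPM in 1344 +/+ cells (-0.69, -0.84 to -0.54). With 2 to 4 it was at 63.8 CPM in fl/fl and 120 CPM in +/+ (-0.91, -1.14 to -0.69), and with 5 to 9 at 39.7 CPM in fl/fl and 98.01 CPM in +/+ (-1.30, -1.54 to -1.07). With 20 or more it was at 21.3 CPM in 1015 fl/fl cells and 88.5 CPM in 870 +/+ cells, 4.15 times lower in fl/fl (-2.05, -2.29 to -1.82). Over this range the fl/fl level was 3.70 times lower at the high than at the low end and the +/+ level 1.44 times lower. Il6ra was not the only member whose ratio moved. Stat3 went from -0.06 (-0.17 to 0.05) at 0 Ikzf2 UMIs to -0.47 (-0.56 to -0.37) at 20 or more. Jak2 went from 0.05 (-0.10 to 0.19) to -0.20 (-0.29 to -0.11). Il27ra went from -0.07 (-0.24 to 0.10) to -0.20 (-0.37 to -0.04). In the other direction, Il6st went from -0.13 (-0.28 to 0.01) to 0.12 (0.001 to 0.23). Cells with more Ikzf2 UMIs were also deeper, with medians of 8516 UMIs in fl/fl and 6828 in +/+ at 20 or more, against 4914 in fl/fl and 5244 in +/+ at 0. Those with 0 Ikzf2 UMIs can include Treg cells whose Ikzf2 was missed.

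**Figure D2:**
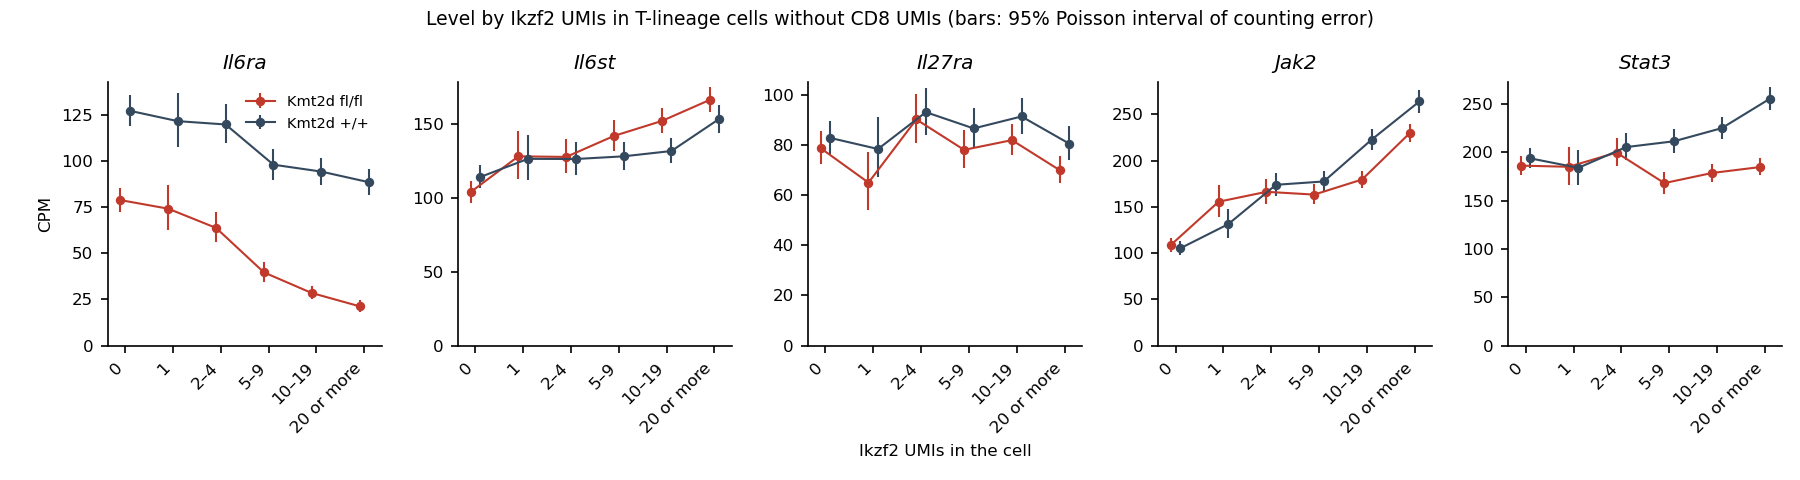
Level of each gene (CPM, linear axes from 0) in T-lineage cells without CD8 UMIs, divided by the Ikzf2 UMIs of the cell, for fl/fl (red) and +/+ (dark blue), with 95% Poisson intervals of counting error. The Il6ra lines part from 78.8 CPM (fl/fl) and 127 CPM (+/+) at 0 Ikzf2 UMIs to 21.3 CPM (fl/fl) and 88.5 CPM (+/+) at 20 or more. The Il6st lines cross, from 103.7 CPM (fl/fl) and 113.9 CPM (+/+) to 166 CPM (fl/fl) and 153.2 CPM (+/+), and the Il27ra lines stay close together. The Stat3 lines part as well, from 186.4 CPM (fl/fl) and 193.9 CPM (+/+) to 184.9 CPM (fl/fl) and 255.5 CPM (+/+).

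Il6st, which encodes the shared signalling chain gp130, was slightly higher in fl/fl in the whole Treg gate and differed in opposite directions within it. The gate as a whole had 4093 UMIs in fl/fl and 3287 in +/+, or 151 CPM in fl/fl and 136 CPM in +/+ (0.15, 0.08 to 0.22). Of measured genes, 13.1% had a higher ratio, and with the libraries centred on the median gene Il6st was at 0.29. Effector-like cells were at 97.99 CPM in fl/fl and 124 CPM in +/+ (-0.34, -0.55 to -0.14), and central-like cells at 161 CPM in fl/fl and 139 CPM in +/+ (0.21, 0.13 to 0.29). Those in between were at 114 CPM in fl/fl and 143 CPM in +/+ (-0.33, -0.59 to -0.09). So Il6st was higher in fl/fl in central-like cells and lower in both other slices, and the effector-like ratio minus the central-like ratio was -0.55 (-0.77 to -0.34). Within a library, the log2 ratio of effector-like over central-like cells was -0.71 (-0.89 to -0.54) in fl/fl and -0.16 (-0.29 to -0.03) in +/+. The value of the whole gate leans on its make-up: central-like cells were 80.5% of the gate in fl/fl and 62.7% in +/+, and effector-like cells 12.5% in fl/fl and 24.8% in +/+. With the 3 slices weighted alike the ratio turned to -0.16.

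Among other T cells, Il6st was higher in fl/fl in cycling cells, at 115 CPM in fl/fl and 80.1 CPM in +/+ (0.52, 0.30 to 0.75), and in interferon-responding cells, at 166 CPM in fl/fl and 121 CPM in +/+ (0.46, 0.18 to 0.73). These gates hold Treg and other T cells together, with Ikzf2 at 1640 CPM in fl/fl and 1028 CPM in +/+ cycling cells and at 1851 CPM in fl/fl and 1474 CPM in +/+ interferon-responding cells. CD8 T cells were at 92.5 CPM in fl/fl and 117 CPM in +/+ (-0.34, -0.62 to -0.07), and conventional CD4 T cells at 96.0 CPM in fl/fl and 109 CPM in +/+ (-0.18, -0.44 to 0.07). Compared with conventional CD4 T cells of their own library, Treg-gated cells had more Il6st, with log2 ratios of 0.65 (0.47 to 0.84) in fl/fl and 0.32 (0.14 to 0.51) in +/+. NK cells were at the other end, with 2 Il6st UMIs in fl/fl and 3 in +/+, too few for a ratio. Memory-like CD8 T cells had 23.9 CPM in fl/fl and 40.8 CPM in +/+, against 115 CPM in fl/fl and 134 CPM in +/+ naive-like CD8 T cells, so this chain, like Il6ra, was lower in the memory-like cells of both libraries.

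Il27ra, the interleukin-27 receptor chain, was close to the all-gene median in the Treg gate. It had 2119 UMIs in fl/fl and 2115 in +/+, or 78.1 CPM in fl/fl and 87.5 CPM in +/+ (-0.16, -0.25 to -0.08), and 46.6% of measured genes had a lower ratio. Effector-like cells were at 96.6 CPM in fl/fl and 95.1 CPM in +/+ (0.02, -0.19 to 0.23), and central-like cells at 75.1 CPM in fl/fl and 84.1 CPM in +/+ (-0.16, -0.27 to -0.06). The effector-like level was the higher of the pair in both libraries, by log2 ratios of 0.36 (0.18 to 0.55) in fl/fl and 0.18 (0.03 to 0.33) in +/+, opposite to Il6st. Il27ra was a gene of lymphocytes here: monocytes and macrophages had 1 UMI in fl/fl and 2 in +/+, and dendritic cells 0 in fl/fl (a limit of 4.56 CPM) and 1 in +/+. CD8 T cells were at 73.9 CPM in fl/fl and 98.6 CPM in +/+ (-0.42, -0.72 to -0.12), B cells at 18.96 CPM in fl/fl and 26.3 CPM in +/+ (-0.47, -0.87 to -0.07), and NK cells at 24.1 CPM in fl/fl and 46.2 CPM in +/+ (-0.94, -2.11 to 0.18). Unlike the interleukin-6 chains, Il27ra was at similar levels in memory-like CD8 T cells, at 69.6 CPM in fl/fl and 102 CPM in +/+, and naive-like ones, at 79.9 CPM in fl/fl and 101 CPM in +/+.

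The chains of one receptor were seen in the same cell about as often as their separate shares would give. After thinning, Il6ra and Il6st UMIs were found together in 2.31% (1.85 to 2.85) of fl/fl and 5.12% (4.45 to 5.86) of +/+ Treg-gated cells, where the product of the shares is 2.00% in fl/fl and 5.17% in +/+. Il27ra and Il6st were found together in 4.65% (3.996 to 5.38) of fl/fl and 5.15% (4.47 to 5.89) of +/+ cells, with products of 4.89% in fl/fl and 4.88% in +/+. The interleukin-6 pair was thus the less frequent of the 2 pairs in fl/fl, and the 2 pairs were at like shares in +/+. All 3 chains were found in 0.403% of fl/fl and 1.08% of +/+ cells. At 2500 UMIs most transcripts of a cell are missed, so these are shares of cells with UMIs, not of cells that carry the receptors.

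**Figure D3:**
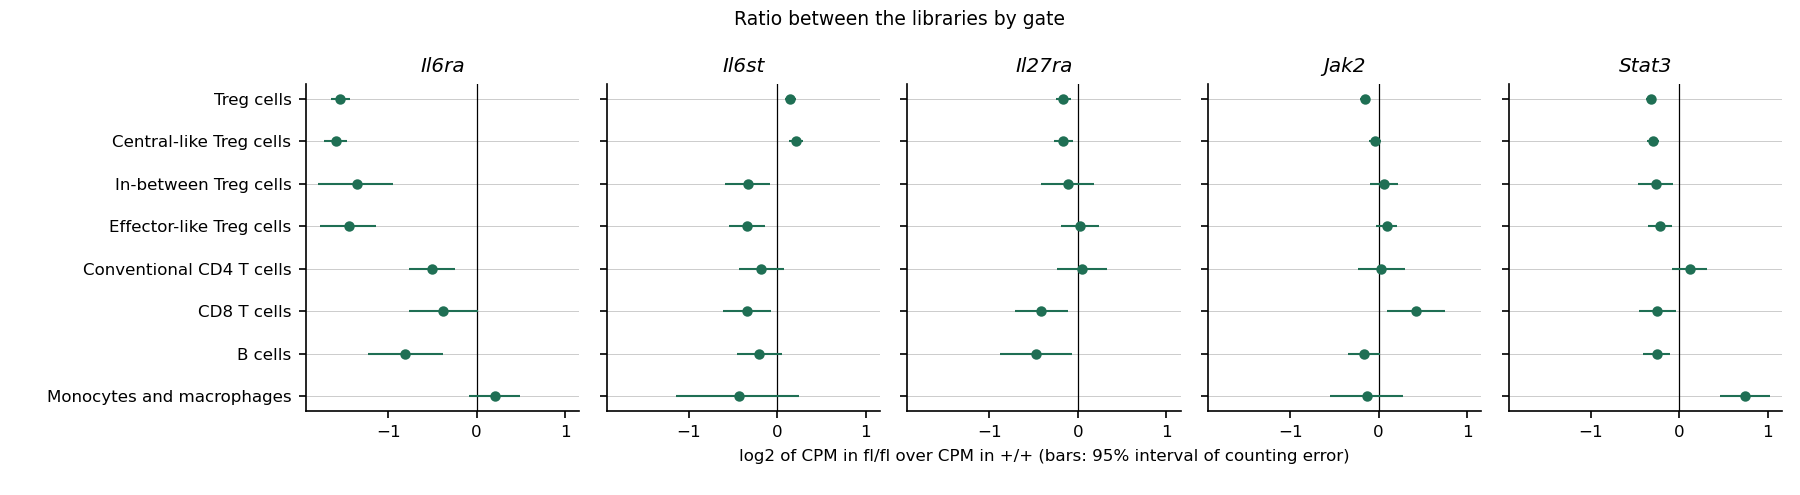
Log2 ratio of CPM, fl/fl over +/+, for each gene in 8 gates, with bars for the 95% interval of counting error and a line at 0; Il27ra in monocytes and macrophages is left out for want of counts. Il6ra lies between -1.59 and -1.35 in the Treg gate and its slices and between -0.81 and 0.21 in the other gates drawn, Il6st changes side between central-like (0.21) and effector-like (-0.34) Treg cells, and Stat3 is at 0.74 in monocytes and macrophages.

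Jak2, the kinase, differed between cell states more than between the libraries. Dendritic cells had the highest level of the gates compared, 423 CPM in fl/fl and 384 CPM in +/+. Effector-like Treg cells came next, at 326 CPM in fl/fl and 306 CPM in +/+ (0.09, -0.02 to 0.21), against 166 CPM in fl/fl and 170 CPM in +/+ central-like Treg cells (-0.04, -0.11 to 0.03). Within a library the effector-like level was thus 1.97 times the central-like one in fl/fl and 1.80 times in +/+. The Treg gate as a whole was at 191 CPM in fl/fl and 213 CPM in +/+ (-0.16, -0.21 to -0.10), although none of its 3 slices had an interval excluding 0, and with the slices weighted alike the ratio turned to 0.04. Treg-gated cells had 2.07 times the Jak2 level of conventional CD4 T cells in fl/fl and 2.37 times in +/+. In CD8 T cells Jak2 was at 85.9 CPM in fl/fl and 64.1 CPM in +/+ (0.42, 0.09 to 0.76), the one gate among conventional CD4, CD8, B and Treg cells where it was higher in fl/fl with an interval excluding 0.

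Stat3, the transcription factor that both receptors activate, was modestly lower in fl/fl Treg-gated cells. It was at 182 CPM in fl/fl and 226 CPM in +/+ (-0.32, -0.37 to -0.26), and 24.6% of measured genes had a lower ratio. The slices were alike, with central-like cells at 176 CPM in fl/fl and 216 CPM in +/+ (-0.30, -0.36 to -0.23) and effector-like cells at 222 CPM in fl/fl and 257 CPM in +/+ (-0.21, -0.35 to -0.08). Conventional CD4 T cells were at 176 CPM in fl/fl and 162 CPM in +/+ (0.12, -0.08 to 0.32), and the Treg ratio minus theirs was -0.44 (-0.64 to -0.24). The all-gene medians were -0.14 in the Treg gate and -0.01 in conventional CD4 T cells. Treg-gated cells had 1.03 times the Stat3 level of conventional CD4 T cells in fl/fl, where the interval of the log2 ratio (-0.09 to 0.19) included 0, and 1.399 times in +/+ (log2 interval 0.34 to 0.64). CD8 T cells (-0.25, -0.46 to -0.04) and B cells (-0.26, -0.41 to -0.10) had ratios close to that of the Treg gate.

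NK cells had the highest Stat3 level, 444 CPM in fl/fl and 612 CPM in +/+ (-0.46, -0.73 to -0.20), above the next gate beyond counting error in both libraries. In monocytes and macrophages Stat3 was at 318 CPM in fl/fl and 190 CPM in +/+ (0.74, 0.47 to 1.02), opposite in direction to the Treg gate. The make-up of that gate differed too: the tissue macrophage genes C1qa and C1qb had 290 and 209 counts in 108 fl/fl cells, against 739 and 574 counts in 144 +/+ cells, and their part in the Stat3 ratio was not tested.

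**Figure D4:**
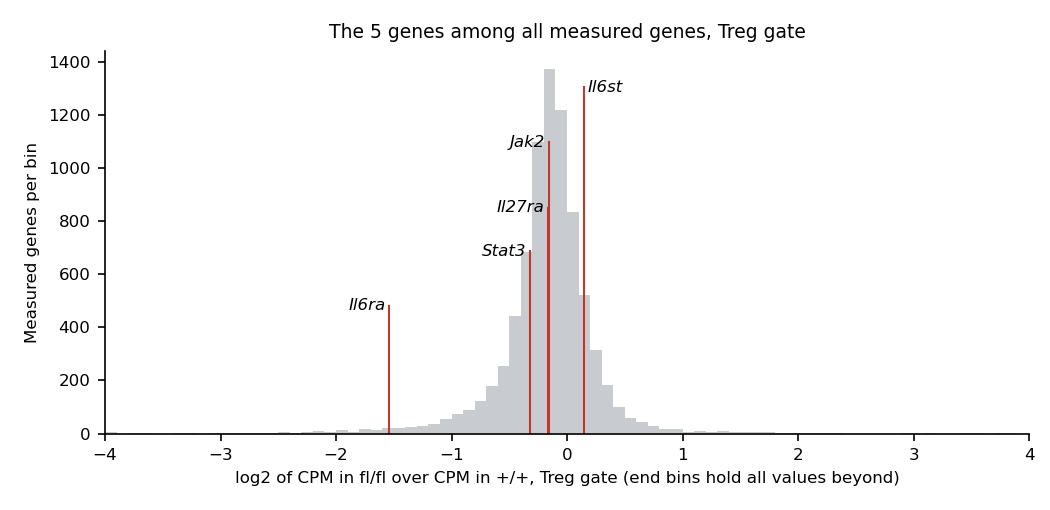
Number of measured genes in the Treg gate by log2 ratio of CPM, fl/fl over +/+, in grey, with the 5 genes as red lines whose heights carry no value. Il6ra at -1.54 lies in the lower tail, with 1.38% of 7999 genes below it, and Il27ra and Jak2 lie near the median of -0.14.

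Of 57 other genes of the pathway, 41 were measured in the Treg gate, of which 1 was at least 1.5-fold higher in fl/fl, 16 were lower and 24 were neither, beside 2.21% higher and 9.75% lower of all measured genes. The median log2 ratio of the list was -0.40, beside -0.14 for all measured genes. Among ligands, 2 of 9 were measured. Ebi3, the subunit shared by interleukin-27 and interleukin-35, had 25 counts in fl/fl and 366 in +/+ Treg-gated cells, or 0.921 CPM in fl/fl and 15.1 CPM in +/+ (-4.04, -4.69 to -3.45), and Clcf1, a ligand of the gp130 family, was at 7.15 CPM in fl/fl and 11.2 CPM in +/+ (-0.65). Among receptors, Il10ra, a chain of the interleukin-10 receptor, was at 18.6 CPM in fl/fl and 37.8 CPM in +/+ (-1.02), Il21r at 84.5 CPM in fl/fl and 130 CPM in +/+ (-0.62), and the 2 others measured, Il12rb2 (0.12) and Il10rb (-0.48), were neither. Ebi3 and Il10ra, like Il6ra, were more than 2-fold lower in fl/fl.

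The kinases divided as well. Tyk2, which pairs with other JAK kinases at the gp130 and interleukin-12 families of receptors, was at 22.8 CPM in fl/fl and 35.8 CPM in +/+ (-0.65), and Jak3, the kinase of the common gamma chain, at 9.25 CPM in fl/fl and 15.1 CPM in +/+ (-0.71), while Jak1 was at 493 CPM in fl/fl and 504 CPM in +/+ (-0.03). By slice, 2 of these 3 kinases were past 1.5-fold lower in central-like cells, beside 9.01% of all measured genes. In effector-like cells 0 of 3 were, beside 9.44%. None of 6 other STAT genes was past 1.5-fold. Stat4, a factor below interleukin-12, was at 170 CPM in fl/fl and 228 CPM in +/+ (-0.42) in the whole gate, with the slices on opposite sides of 0: effector-like cells were at 347 CPM in fl/fl and 309 CPM in +/+ (0.16, 0.05 to 0.28), and central-like cells at 137 CPM in fl/fl and 189 CPM in +/+ (-0.46, -0.53 to -0.39). Among 7 inhibitors, Socs3, which STAT3 induces and which binds gp130, was at 30.1 CPM in fl/fl and 61.97 CPM in +/+ (-1.04, -1.16 to -0.92), and Ptpn6, the phosphatase SHP-1, at 39.9 CPM in fl/fl and 80.4 CPM in +/+ (-1.01). Socs3 differed by slice: central-like cells were at 23.3 CPM in fl/fl and 59.4 CPM in +/+ (-1.35, -1.51 to -1.20), and effector-like cells were at 69.4 CPM in fl/fl and 66.8 CPM in +/+ (0.06, -0.20 to 0.31). Ptpn6 was past 1.5-fold lower in both slices. Socs1 (-0.10), Pias1, Ptpn2 and Ptpn11 were neither, and so were Adam10 and Adam17, proteases that can shed the interleukin-6 receptor.

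Of 20 genes listed as targets of STAT factors in T cells, 18 were measured, with 8 lower, 1 higher and 9 neither, in the gate where 9.75% of all measured genes were lower and 2.21% higher. The lower ones were Il10 at 13.8 CPM in fl/fl and 37.2 CPM in +/+ (-1.43), Rora, a receptor of the T helper 17 programme, at 87.9 CPM in fl/fl and 222 CPM in +/+ (-1.34), Bcl3 (-0.92), Junb (-0.84), Batf (-0.73), Cebpb (-0.69), Pim1 (-0.68) and Cxcr3 (-0.60). Of these, Rora, Bcl3 and Junb were past 1.5-fold lower in both central-like and effector-like cells, Pim1 in central-like cells, and Batf and Cebpb in neither. Il10 and Cxcr3 were under 10 CPM in both libraries in central-like cells, so not measured there, and were not past 1.5-fold in effector-like cells. Cxcr3, which the split used, was at 164 CPM in fl/fl and 121 CPM in +/+ effector-like cells (0.43, 0.26 to 0.61), opposite to the whole gate. The higher one was Bcl2, a survival gene, at 838 CPM in fl/fl and 533 CPM in +/+ (0.65). With the libraries centred on the median gene, Clcf1, Il21r, Jak3, Tyk2, Pim1, Cebpb and Cxcr3 were no longer past 1.5-fold and Gbp2, an interferon-induced GTPase gene, was higher (0.61). These genes answer to many signals, and several are markers of effector cells, whose share of the gate differed between the libraries as given above. In central-like Treg cells 11 of the list were lower and 1 higher of 36 measured, and in effector-like cells 7 were lower and 3 higher of 43. Over all measured genes 9.01% were lower and 2.13% higher in central-like cells, and 9.44% lower and 3.96% higher in effector-like cells. The list's medians were -0.39 in central-like and -0.21 in effector-like cells; the split itself used Maf, Icos and Cxcr3. In conventional CD4 T cells 0 were lower and 7 higher of 39 measured (median 0.05), beside 2.85% lower and 3.38% higher of all measured genes, the 7 being Il12rb2, Il10rb, Prdm1, Tbx21, Cxcr3, Icos and Rora, in a gate whose activated-like cells were 16.7% in fl/fl and 9.11% in +/+. Rora was thus lower in fl/fl Treg-gated cells and higher in fl/fl conventional CD4 T cells, at 187 CPM in fl/fl and 84.7 CPM in +/+ (1.14, 0.90 to 1.39). The difference of ratios between the gates was not tested.

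**Figure D5:**
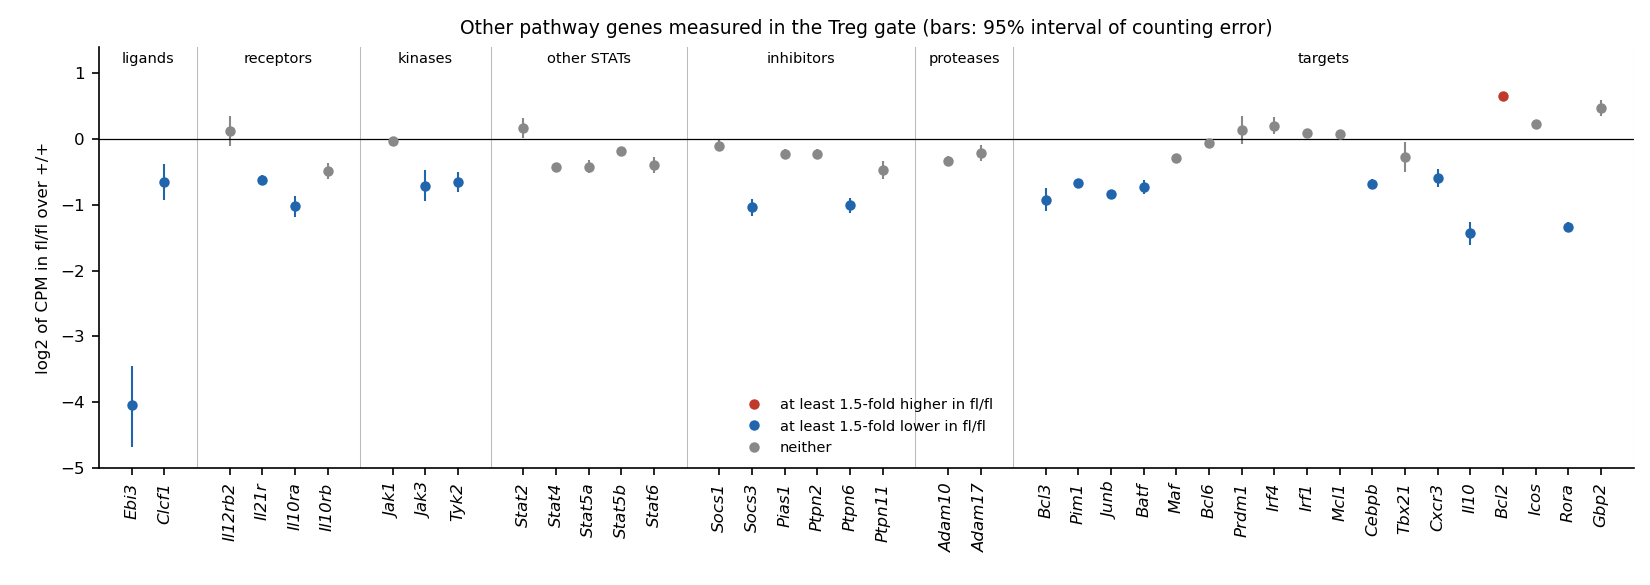
Log2 ratio of CPM, fl/fl over +/+, for 40 of the 41 other pathway genes measured in the Treg gate, grouped by role, with bars for the 95% interval of counting error. Ebi3 at -4.04 is the lowest, 16 genes (blue) are at least 1.5-fold lower in fl/fl, Bcl2 (red) is higher at 0.65, and the 23 in grey are neither.

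Ligand transcripts are given as UMI sums per gate. Il6 had 0 UMIs in fl/fl (a limit of 0.111 CPM) and 7 in +/+ Treg-gated cells, 8 UMIs in fl/fl and 10 in +/+ monocytes and macrophages, and 6 in fl/fl and 15 in +/+ dendritic cells. Il27, the other interleukin-27 subunit, had 15 UMIs in fl/fl and 23 in +/+ Treg-gated cells, 0.553 CPM in fl/fl and 0.951 CPM in +/+, and in monocytes and macrophages 13 in fl/fl and 9 in +/+. Ebi3 outside the Treg gate was highest in neutrophils (45.6 CPM in 47 fl/fl cells and 61.7 CPM in 84 +/+ cells). Next came monocytes and macrophages (32.0 CPM in fl/fl and 25.5 CPM in +/+) and dendritic cells (21.3 CPM in fl/fl and 27.9 CPM in +/+), in opposite order in the libraries. B cells had 53 Ebi3 UMIs in fl/fl and 35 in +/+, at 7.18 CPM in fl/fl and 10.97 CPM in +/+. Osm, which encodes oncostatin M, a gp130 cytokine, was at 134 CPM in fl/fl and 111 CPM in +/+ neutrophils.

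The genes with the level profile most like each member were ranked by Pearson's r of log2(CPM + 1) over 30 profiles, 15 gates in each of 2 libraries, which share depth and library and carry no test. For Il6ra they were Ext1 (0.88), Nfix, Slc39a11 and Ifngr2, an interferon-gamma receptor chain; in the Treg gate their log2 ratios lay between -0.31 and 0.13, so none had the ratio of Il6ra there. For Il6st they were Inpp4b (0.89), Rgs10 (0.85), Atic and Mat2a. Inpp4b, a lipid phosphatase gene, was at 3961 CPM in fl/fl and 2648 CPM in +/+ Treg-gated cells, a log2 ratio of 0.58. The log2 ratio of Rgs10 in the Treg gate was -0.58. Il27ra was most like Gimap3 (0.96), Sidt1, Gimap4 and Tnfrsf26, of which Gimap3 and Gimap4 belong to a family of lymphocyte GTPases. Stat3 was most like Tyk2 (0.84), Pik3r1, Grina and Tmtc1, and Jak2 like Apol10b (0.88), Socs2, Paxbp1 and Tspan13. Socs2, an inhibitor of cytokine signalling, was at 82.2 CPM in fl/fl and 30.4 CPM in +/+ Treg-gated cells (1.44, 1.32 to 1.56).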

How the data were processed

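Droplet single-cell libraries were made with the 10x Genomics 3′ version 3.1 kit, per the labels' protocols. The deposited matrices hold raw UMI counts per gene and barcode with no normalization, made with Cell Ranger 7.1.0 per the submitters' processing notes, which also name fastp and Seurat 4.1.1 and the builds mm10 and GRCm38 without saying what each was used for. The authors' cell filters and whether counting used strand are not given in the sources used here.

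Cells with fewer than 500 genes or more than 10% mitochondrial UMIs were left out. Gates used marker UMIs as stated with the results, and cells meeting the gates of more than 1 lineage (295 fl/fl and 264 +/+) were left out as mixed, which treats doublets between lineages but not those between T cells. A further 65 fl/fl and 67 +/+ cells met no gate. T cells outside the named T cell gates were kept as a gate of their own. Gates with under 50 cells in either library were not compared, which left 15 of 20.

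Counts were summed per gate and library and scaled to CPM by the total UMIs. Ratios have exact conditional binomial intervals, levels exact Poisson intervals and shares exact binomial (Clopper-Pearson) intervals, all at 95%; differences of log2 ratios have delta-method intervals. All cover counting error only. With 1 library per genotype there is no test and no p-value. A gene was called past 1.5-fold, in either direction, where the interval also left out 1 and the higher of the libraries reached 10 CPM; the calculation was tested on simulated counts. The limit for a count of 0 is 3 counts. Thinning to 2500 UMIs left out 219 fl/fl and 187 +/+ cells. All 5 members are named, with the 4 genes most like each over the profiles (at 20 CPM or more in 1 profile, genes used in gates left out) and the pathway genes past 1.5-fold in the Treg gate; other pathway genes were named after their values were seen, as were C1qa, C1qb, Lyz2 and Ms4a6c. Alternatives were the scaling, the filters, the gate rules, thinning, the fold and CPM floors and equal weights for the Treg slices. The members, lists and gates were chosen with earlier results of these data known.

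Python 3.11.15, NumPy 2.4.6, SciPy 1.17.1, pandas 2.3.3 and matplotlib 3.10.9 were used. Positions come from the GENCODE annotation of GRCm38 and upstream sequences from RefSeq, which matched 4 of the 5 members; Il27ra has no entry in the table used. One gene of the pathway list and one gate marker are not reported here by name.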

Additional observations from a re-analysis of the deposited data

Results flagged for a closer look

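The Treg gate was set beside the other coarse gates, and effector-like beside central-like Treg cells, to find members that differed between the libraries in opposite directions with both intervals of counting error excluding 0. The cases below are those of these pairs only, and other pairs of gates hold more: Il6st was at -0.33 in Treg cells in between, and Jak2 at 0.19 in T cells in no named gate, against 0.15 and -0.16 in the whole Treg gate. With 1 library per genotype none of these differences was tested across mice. Il6st was at a log2 ratio (fl/fl over +/+) of -0.34 in CD8 T cells, where the Treg gate was at 0.15, and at -0.34 in effector-like Treg cells, where central-like Treg cells were at 0.21. Stat3 was at 0.74 in monocytes and macrophages, against -0.32 in the Treg gate. Jak2 was at 0.42 in CD8 T cells, against -0.16 in the Treg gate.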

How the results depend on the processing

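No paired analysis was possible because each genotype has 1 library. Over 10 alternatives the Treg log2 ratio of Il6ra lay between -1.70 and -1.24, that of Stat3 between -0.40 and -0.17 and that of Il27ra between -0.19 and -0.02, all on the same side of 0. Il6st and Jak2 turned with the 3 Treg slices weighted alike, to -0.16 and 0.0388; the value of Stat3 was then -0.26. Centring the libraries on the median gene, which adds 0.14, gave -1.40 for Il6ra, 0.29 for Il6st, -0.02 for Il27ra, -0.17 for Stat3 and -0.0130 for Jak2. Requiring a Foxp3 UMI (745 fl/fl and 902 +/+ cells) gave -1.70 for Il6ra, 0.22 for Il6st, -0.40 for Stat3 and -0.0105 for Jak2. At least 5 Ikzf2 UMIs gave -1.69 for Il6ra and 0.22 for Il6st. All T-lineage cells together gave -1.24 for Il6ra, -0.26 for Stat3 and -0.0593 for Jak2. Genes at least 1.5-fold higher numbered 177 and lower ones 780; centring gave 289 and 531 (64.8% lower among called genes, in place of 81.5%), a 20 CPM floor 110 higher, a limit of 25% more in one library than in the other 474 and 1946, and a 2-fold limit 64 and 284. The 17 pathway genes past the limit became 6 at 2-fold and 11 with centring (2 higher and 9 lower, in place of 1 and 16). The cause of these moves was not tested. The other alternatives moved no member's ratio in conventional CD4 T cells or B cells by more than its counting interval; without requiring a Cd4 UMI, an alternative added after seeing the data, Il6ra in conventional CD4 T cells was at -0.67. Cell number limits the small gates: for the members, NK, dendritic and memory-like CD8 T cells gave wide intervals, most of which included a log2 ratio of 0. Stat3 in NK cells (-0.46, -0.73 to -0.20) was an exception.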
